A study of Mus musculus with 20 samples.

Results

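The 4 early growth response genes (Egr1, Egr2, Egr3 and Egr4) and the 2 genes of their corepressors (Nab1 and Nab2) were followed by RNA sequencing in DC2 cells, an immortalised line derived from principal cells of the distal caput of the mouse epididymis. Members were the rows of the deposited expression tables whose gene symbol equalled 1 of these 6 names, out of 21509 genes. Expression was given as TPM, a transcript level corrected for transcript length and scaled to 1000000 in each library. The 20 libraries formed 2 experiments. In the first, cells in microfluidic channels were perfused for 3 h at a shear of 1 dyn/cm2 (flow, 6 libraries) or were kept without flow (static, 6 libraries). In the second, cells were transfected with siRNAs against Ift88, a gene needed to build the primary cilium (Ift88 siRNA, 4 libraries), or with a scrambled siRNA (control siRNA, 4 libraries). Both siRNA groups were under flow according to the methods, although their labels do not name it. All groups came from the same cell line, kept in low-serum medium before the stimulus, so the values describe 1 line in culture. The labels do not say that replicates were separate cultures, and the series description names 4 experiments for the 6 flow and 6 static libraries, so some of these may share an experiment and the p-values measure the spread between these libraries, which may be technical.

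Egr proteins are zinc finger transcription factors that bind GC-rich sites. Their genes are immediate early genes: they need no new protein synthesis to be switched on, and serum response factor (SRF) with its ternary complex partners, which carry signals of the ERK kinases, binds CArG boxes near their starts. Nab1 and Nab2 bind Egr1, Egr2 and Egr3 and repress their activity, in part through the NuRD chromatin complex, and Nab2 is itself a target of Egr proteins. Egr4 lacks the domain that Nab proteins bind. In vessels and other tubes, Egr1 is known as a gene that responds to fluid shear.

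Promoters, from 250 bases before to 50 bases after a gene's start, were read from RefSeq (GRCm38.p6), where 4 of the 6 members were found with 8 promoters (Egr2, Egr4, Nab1 and Nab2). The pair below is shown because one holds the site of the SRF pathway and the other holds sites of the Egr proteins themselves. Capitals mark a CArG box (CC, A or T at 6 places, GG) in Egr2 and sites with the letters GCGNGGGCG, on either strand, in Nab1.
Egr2, chr10:67537619-67537918, plus strand: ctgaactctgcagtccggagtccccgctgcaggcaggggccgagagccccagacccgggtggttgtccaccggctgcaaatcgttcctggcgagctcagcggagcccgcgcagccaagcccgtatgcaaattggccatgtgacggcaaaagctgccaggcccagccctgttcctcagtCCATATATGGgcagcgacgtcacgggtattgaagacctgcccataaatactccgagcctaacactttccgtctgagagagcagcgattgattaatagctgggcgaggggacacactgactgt
Nab1, chr1:52500399-52500698, minus strand: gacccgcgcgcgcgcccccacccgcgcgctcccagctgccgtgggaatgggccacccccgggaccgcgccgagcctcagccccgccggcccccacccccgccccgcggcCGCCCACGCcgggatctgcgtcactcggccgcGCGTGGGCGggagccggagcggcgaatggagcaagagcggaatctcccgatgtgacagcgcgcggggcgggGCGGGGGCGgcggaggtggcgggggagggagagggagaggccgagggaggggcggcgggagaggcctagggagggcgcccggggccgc
The CArG box of this Egr2 promoter lay at bases -72 to -63 from the start. A CArG box was present in 4 of the 5 Egr2 promoters, but these are not all separate sites. The windows that start at bases 67537620 and 67537680 overlap the printed one and hold the same box. The window that starts at base 67537316 holds another box, CCTTTTTTGG. The 3 Egr sites of Nab1 lay at -141 to -133, -109 to -101 and -38 to -30. No match in either printed promoter overlapped another. Of all 32851 promoters in the table, 1.63% held a CArG box, 5.55% an Egr site, 1.79% the cyclic AMP response element TGACGTCA and 14.9% the Ets core CCGGAA. The promoters of Egr4 and Nab2 held none of these letters. These matches describe letters only, and no binding was measured.

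The libraries were first compared with their labels. The labels of 1 library conflict, since its title names flow while its treatment entry names static conditions, and it was counted as flow replicate 6. Its Egr1, Egr2 and Egr3 levels lay above those of all 6 static libraries, but these values are themselves tested below and cannot serve as a check of its label. Ift88, the target of the siRNAs, averaged 1.30 ± 0.33 TPM in the libraries that received them and 4.14 ± 0.05 TPM in their controls (SD, n = 4 each). Of 8 principal cell markers, 2 reached a mean of 1 TPM in the flow and static groups, Cftr among them, and the principal cell water channel Aqp9 was at 0.168 and 0.174 TPM. The epithelial keratins Krt18 (56.4 and 47.7 TPM) and Krt19 (15.9 and 15.8 TPM) were present, while the keratin Krt8 (0.536 and 0.420 TPM) and the adhesion proteins Cdh1 (0.765 and 0.933 TPM) and Epcam (near 0) were under 1 TPM. Markers of basal cells (up to 0.483 TPM summed per library), endothelium (1.42), clear cells (2.30) and fibroblasts or smooth muscle (6.11) were low in the flow and static libraries. Of the immune markers, Cd68, a lysosomal protein of macrophages, was at 18.6 and 24.2 TPM and Ptprc, carried by all leukocytes, was near 0. Summed per library, the epithelial markers were at 70.8 to 293 TPM in flow and 66.9 to 138 TPM in static libraries. They were far higher in the siRNA libraries, at 2877 to 3283 TPM with control siRNA and 2917 to 3345 TPM with Ift88 siRNA. The summed immune markers were at 10.1 to 64.0 TPM in flow and static libraries and at 87.2 to 99.0 TPM in siRNA libraries. Flow and static libraries also differed along their replicate numbers, with 34.4% of the variance on a first component that placed replicates 1 to 3 above replicates 4 to 6 in both groups. The results are therefore also given within these sets.

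Egr1 was the most abundant Egr transcript and rose under flow. Its level was 252, 113, 143, 525, 695 and 534 TPM in flow replicates 1 to 6, and 27.9, 23.7, 25.7, 32.1, 63.4 and 81.9 TPM in static replicates 1 to 6. Every flow library lay above every static library, and the lowest flow value (replicate 2) was above the highest static value (replicate 6). The group means were 377 ± 240 TPM in flow (SD, n = 6) and 42.5 ± 24.3 TPM in static cells (n = 6), a ratio of 8.88. On the log2(TPM + 1) scale the difference was 2.98 (SE 0.45, 95% confidence interval 2.01 to 3.95), with a limma p adjusted by Benjamini-Hochberg over 11388 genes of 0.0160. A gene was called at an adjusted p under 0.05 with a change over 1.5-fold. By this rule 1 of the 5 members that could be tested was called higher, beside 0.105% of all genes tested. The call was lost without flow replicate 4 (limma adjusted p = 0.0580) and without static replicate 1 (0.0687), 2 (0.0547), 3 (0.0559) or 4 (0.0607), at differences of 2.82 to 2.93. It was also lost with no filter on low TPM (0.104) and with flow replicate 6 counted as static (1.00). In a fit with replicate number as a block the SE was 0.19 and the limma adjusted p 0.000123. In these bulk cultures, a change in the number of expressing cells and a change in RNA per cell cannot be told apart. Egr1 is at chromosome 18, bases 34859823 to 34864984, plus strand (GRCm38, GENCODE M21, gene ENSMUSG00000038418).

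**Figure D1:**
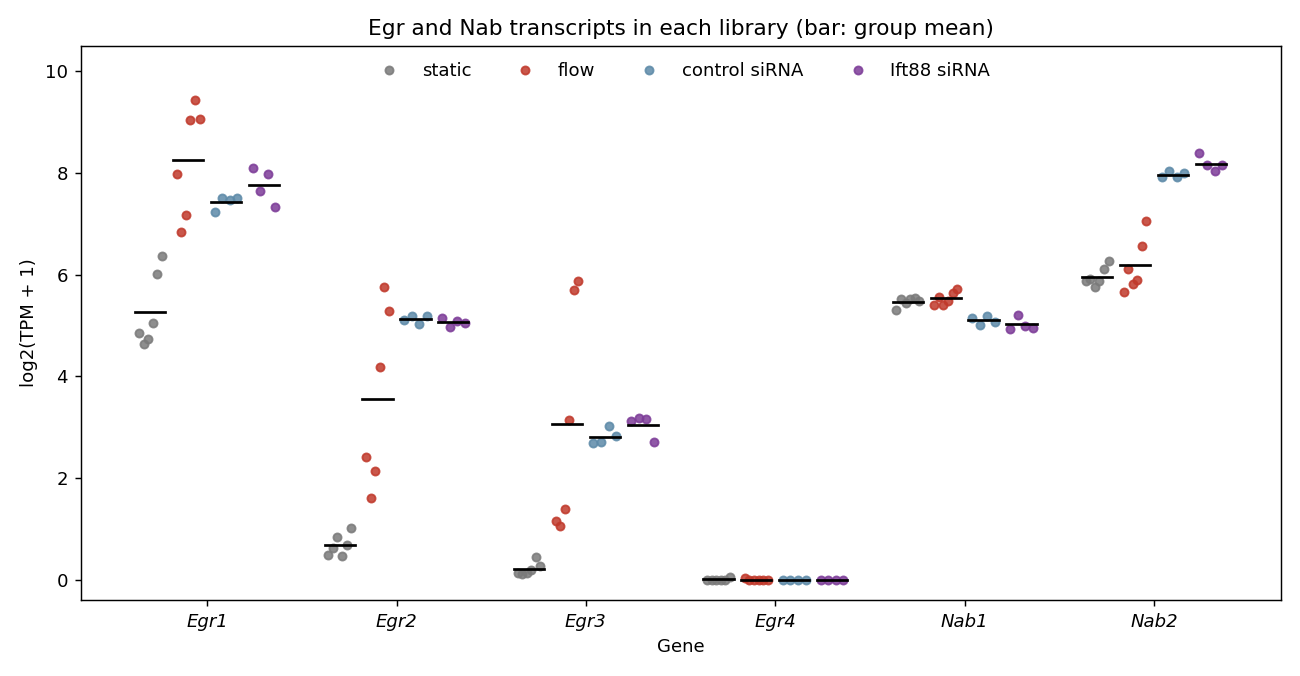
Levels of the 6 genes in each of the 20 libraries as log2(TPM + 1). Points are libraries in order of replicate number within a group and bars are group means; the 2 experiments were normalised in separate tables. Egr1, Egr2 and Egr3 of all 6 flow libraries lie above their static libraries, while the flow and static points of Nab1 and Nab2 overlap and Egr4 stays at or near 0.

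Egr2, which is known for its part in myelination and in lymphocytes, was almost silent in static cells. It was at 0.395, 0.551, 0.802, 0.385, 0.607 and 1.02 TPM in static replicates 1 to 6, and at 4.33, 2.04, 3.42, 17.2, 53.1 and 38.1 TPM in flow replicates 1 to 6. All flow values were above all static values, and flow replicates 4 to 6 were well above flow replicates 1 to 3. The group means were 19.7 ± 21.3 TPM (SD, n = 6) and 0.626 ± 0.245 TPM (n = 6), a ratio of 31.5. Despite this ratio Egr2 was not called, with a log2(TPM + 1) difference of 2.88 (SE 0.61, 95% confidence interval 1.56 to 4.19) and a limma adjusted p of 0.105. When replicate number entered the fit as a block it was called, since the same difference then had an SE of 0.48 and a limma adjusted p of 0.0247. Without pair 6, which holds the library with conflicting labels, the blocked fit called Egr1 but not Egr2. Egr2 was also called without flow replicate 2, the lowest flow library, at a difference of 3.27 (limma adjusted p = 0.0122). With the block, Egr1 and Egr2 were called higher, where 0.597% of all genes tested were. That share is no yardstick for Egr2, which passed the filter of 1 TPM only through its flow libraries. Egr2 lies at chromosome 10, bases 67535475 to 67542188, plus strand (ENSMUSG00000037868).

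Egr3, a close relative of Egr2 known from muscle spindles and lymphocytes, had the lowest static level of Egr1, Egr2 and Egr3 and, as the ratio of its highest to its lowest library, the widest spread under flow. It was at 0.0975, 0.0857, 0.0961, 0.138, 0.366 and 0.209 TPM in static replicates 1 to 6, and at 1.24, 1.07, 1.62, 7.85, 51.1 and 57.9 TPM in flow replicates 1 to 6. The groups did not overlap, and flow replicates 5 and 6 alone exceeded 10 TPM. The means were 20.1 ± 26.8 TPM (SD, n = 6) in flow and 0.165 ± 0.108 TPM (n = 6) in static cells. Because the static values are a small fraction of 1 TPM, the ratio of means (122) is imprecise. The log2(TPM + 1) difference was 2.84 (SE 0.78, 95% confidence interval 1.16 to 4.52), and Egr3 was not called without the block (limma adjusted p = 0.387) or with it (0.0813). With a pseudocount of 0.1 TPM in place of 1 the difference was 4.66 and was not called (limma adjusted p = 0.0697). Egr2 and Egr3 entered the test only through their flow libraries, since both static means were under the filter of 1 TPM. Egr1, Egr2 and Egr3 had every flow library above every static library, which held for 0.492% of all genes tested, but this share is no yardstick for Egr2 and Egr3, which a lack of difference would have kept out of the test. Egr3 lies at chromosome 14, bases 70077203 to 70082614, plus strand (ENSMUSG00000033730).

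Egr4 was near or at 0 throughout. It was above 0 in only flow replicate 1 (0.0326 TPM) and static replicate 6 (0.0351 TPM), and it was listed at 0 in the remaining 10 libraries of that experiment and in all 8 siRNA libraries. It did not pass the filter, and a two-sided exact permutation test over 924 regroupings of the flow and static libraries gave p = 1, which has no weight because with 2 values above 0 no regrouping could have passed the threshold. With no read counts in the tables, a level of 0 says only that no transcript was listed. Egr4 lies at chromosome 6, bases 85511121 to 85513589, minus strand (ENSMUSG00000071341).

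The corepressor genes were expressed with and without flow. Nab1 was at 41.2, 46.4, 41.5, 44.1, 49.2 and 52.0 TPM in flow replicates 1 to 6, and at 38.3, 45.3, 42.5, 44.9, 45.7 and 43.7 TPM in static replicates 1 to 6. These ranges overlapped for most libraries. The log2(TPM + 1) difference was 0.07 (SE 0.07, 95% confidence interval -0.09 to 0.23), with a limma adjusted p of 0.998. The upper bound is far below the differences of Egr1, Egr2 and Egr3. Nab1 lies at chromosome 1, bases 52457294 to 52500679, minus strand (ENSMUSG00000002881).

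Nab2 was at 49.3, 68.2, 55.6, 58.6, 93.3 and 133 TPM in flow replicates 1 to 6, and at 57.4, 59.1, 53.0, 57.9, 68.6 and 75.8 TPM in static replicates 1 to 6. Flow replicates 5 and 6 were above all static libraries, flow replicate 1 was below all of them, and the others overlapped. The means were 76.3 ± 31.7 TPM (SD, n = 6) and 62.0 ± 8.51 TPM (n = 6). The log2(TPM + 1) difference of 0.22 (SE 0.20, 95% confidence interval -0.21 to 0.65; limma adjusted p = 0.998) was within the spread of the libraries. It fell to 0.04 without flow replicate 6. Nab2 lies at chromosome 10, bases 127660918 to 127668568, minus strand (ENSMUSG00000025402), and its last 40 bases overlap Stat6, a gene of the other strand that encodes a cytokine-activated transcription factor. Stat6 was at 69.9 ± 5.03 TPM in flow and 71.4 ± 5.55 TPM in static cells (n = 6 each), a difference of -0.03. Whether reads were assigned by strand is not given in the sources used here.

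Each replicate number gave 1 ratio of flow to static level per gene. The ratio of flow to static TPM of the same replicate number was 9.01, 4.78, 5.55, 16.4, 10.96 and 6.52 for Egr1 in replicates 1 to 6. For Egr2 it was 10.9, 3.70, 4.27, 44.6, 87.5 and 37.5, and for Egr3 it was 12.8, 12.5, 16.9, 56.8, 139 and 277. All 18 ratios were above 1, and those of Egr2 and Egr3 in replicates 4 to 6 exceeded all those in replicates 1 to 3. For Nab2 the ratios were 0.859, 1.16, 1.05, 1.01, 1.36 and 1.75, of which 5 of 6 were above 1, and those of Nab1 ran from 0.977 to 1.19.

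**Figure D2:**
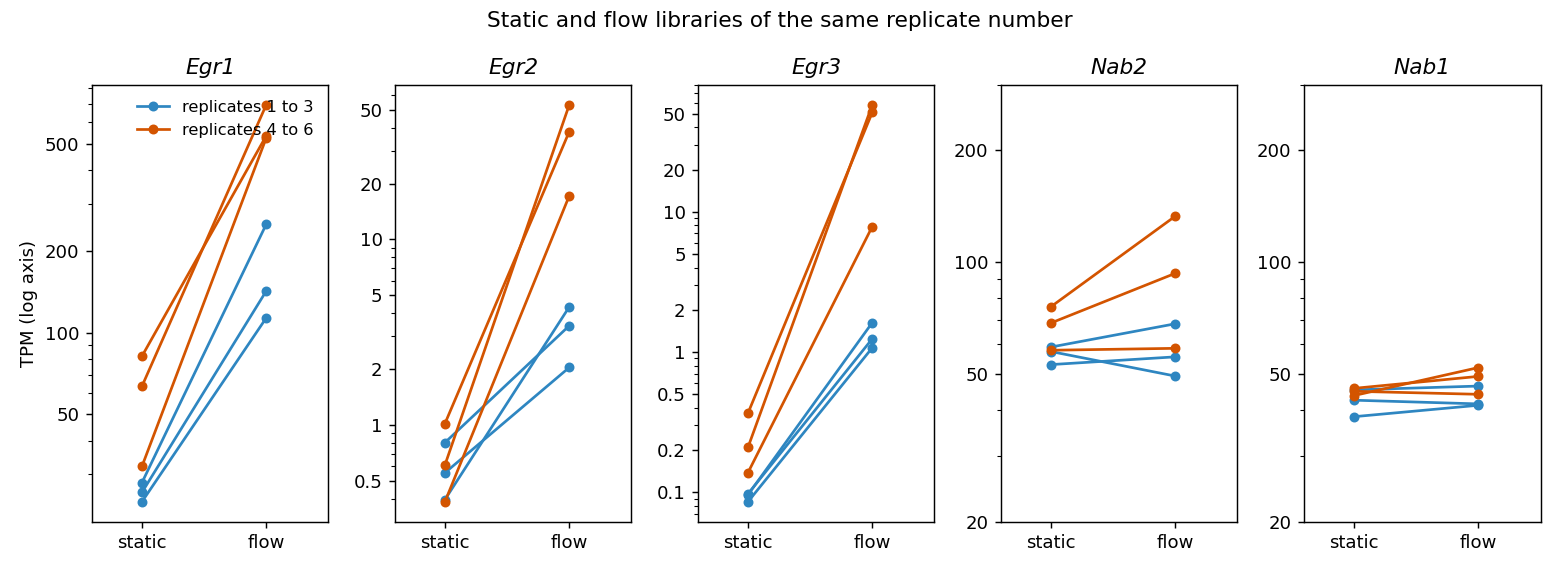
TPM of 5 genes in the static and flow library of each replicate number, on log axes (the Nab axes share 1 range, the Egr axes do not). Blue lines are replicates 1 to 3 and orange lines replicates 4 to 6. All lines of Egr1, Egr2 and Egr3 slope upward, and those of Egr2 and Egr3 are steeper in replicates 4 to 6.

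Within replicates 1 to 3, Egr1 averaged 169 ± 72.9 TPM in flow and 25.8 ± 2.09 TPM in static cells (SD, n = 3 each). Within replicates 4 to 6 the averages were 585 ± 95.9 and 59.1 ± 25.2 TPM. Egr1 was called in both sets, at log2(TPM + 1) differences of 2.59 (limma adjusted p = 0.0316) and 3.37 (0.00367). Egr2 went from a mean of 3.26 ± 1.15 TPM in flow replicates 1 to 3 to 36.1 ± 18.1 TPM in replicates 4 to 6, with static means of 0.583 ± 0.205 and 0.669 ± 0.320 TPM. Its difference was 1.40 (limma adjusted p = 0.170) in the first set and 4.36 (0.00359) in the second. Egr3 averaged 1.31 ± 0.28 and 38.9 ± 27.1 TPM in the flow libraries of these sets. It was under the filter in replicates 1 to 3 and was called in replicates 4 to 6 at a difference of 4.61 (limma adjusted p = 0.0298). Of all genes tested, 0.0443% were called higher in replicates 1 to 3 and 0.49% in replicates 4 to 6, shares that can be set beside Egr1 but not beside Egr2 and Egr3, which passed the filter through their flow libraries.

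The change in the flow effect between the sets was tested as an interaction, in a fit without replicate number as a block. The effect was larger in replicates 4 to 6 by 0.78 (SE 0.45) for Egr1, 2.96 (SE 0.48) for Egr2, 3.53 (SE 0.74) for Egr3 and 0.40 (SE 0.32) for Nab2, in log2(TPM + 1). The unadjusted limma p was 4.37e-05 for Egr2 and 0.000444 for Egr3. These p-values are descriptive only, because the sets were taken from the first component of these same libraries. Both genes also passed the filter only through their flow libraries. After adjustment over all genes limma called no member and 0% of the 11388 genes, with an adjusted p of 0.183 for Egr2 and 0.510 for Egr3, while 238 genes had an unadjusted p under 0.05. The labels do not say what separates the sets.

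**Figure D3:**
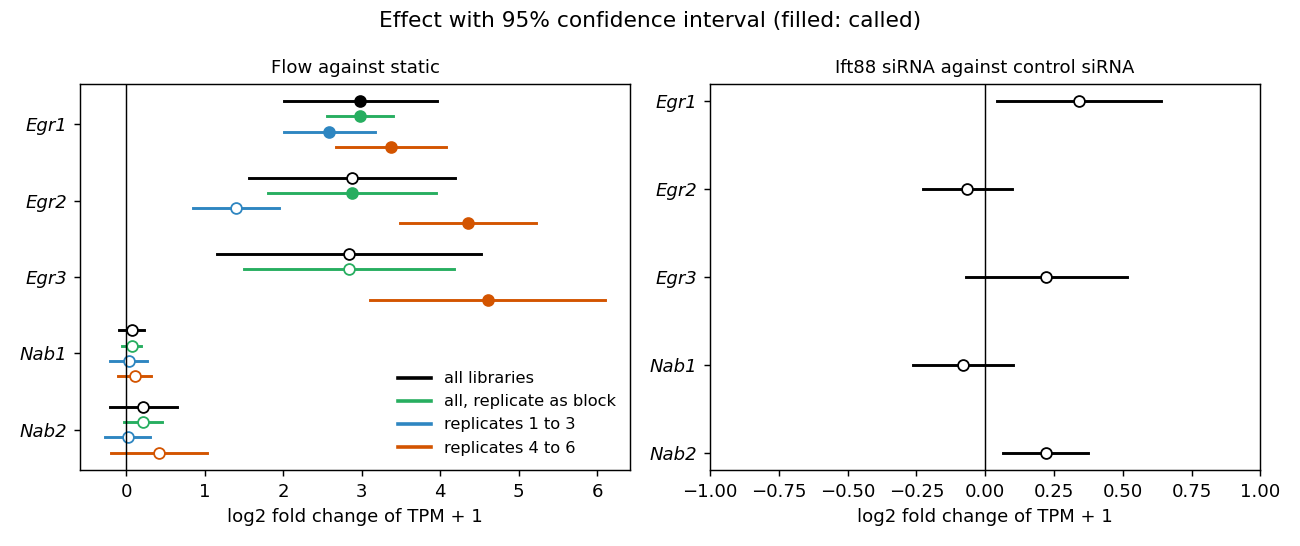
Differences in log2(TPM + 1) of the 5 tested genes, with 95% confidence intervals from limma; filled points were called. The left panel shows flow against static in 4 fits and the right panel Ift88 siRNA against control siRNA on a narrower axis. The Egr intervals lie above 0 in every flow fit, and Egr3 has none for replicates 1 to 3, where it was under the filter; in the siRNA panel no point is filled.

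Egr1 made up most of the Egr transcripts in every library. Its share of the summed Egr TPM was 84.8 to 97.8% in flow and 96.6 to 98.5% in static libraries, while Egr2 held 1.68 to 6.65% in flow and 0.944 to 3.01% in static libraries. The summed Egr level ranged from 117 to 799 TPM in flow (median 404) and from 24.4 to 83.1 TPM in static libraries (median 30.5). The summed Nab level was 90.5 to 185 and 95.4 to 119.6 TPM in the same groups. The ratio of summed Egr to summed Nab transcripts was therefore 1.02 to 5.61 in flow (median 3.13) and 0.234 to 0.695 in static libraries (median 0.307). Every static library held fewer Egr than Nab transcripts and every flow library held more. These sums follow from the members' levels and were not tested apart from them.

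The siRNA libraries, which were normalised in another table, had a different make-up. There the ratio of summed Egr to summed Nab transcripts was 0.680 to 0.774 with control siRNA and 0.623 to 1.00 with Ift88 siRNA. Egr2 held 14.7 to 17.7% of the Egr transcripts with control siRNA and 10.8 to 16.4% with Ift88 siRNA. Nab2 exceeded Nab1 by 6.81 to 8.38 times with control siRNA and by 7.88 to 11.3 times with Ift88 siRNA, where the same ratio was 1.20 to 2.56 in flow and 1.25 to 1.74 in static libraries. The levels in the siRNA and flow tables are given side by side and were not compared in a test, because experiment, transfection and table cannot be told apart.

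**Figure D4:**
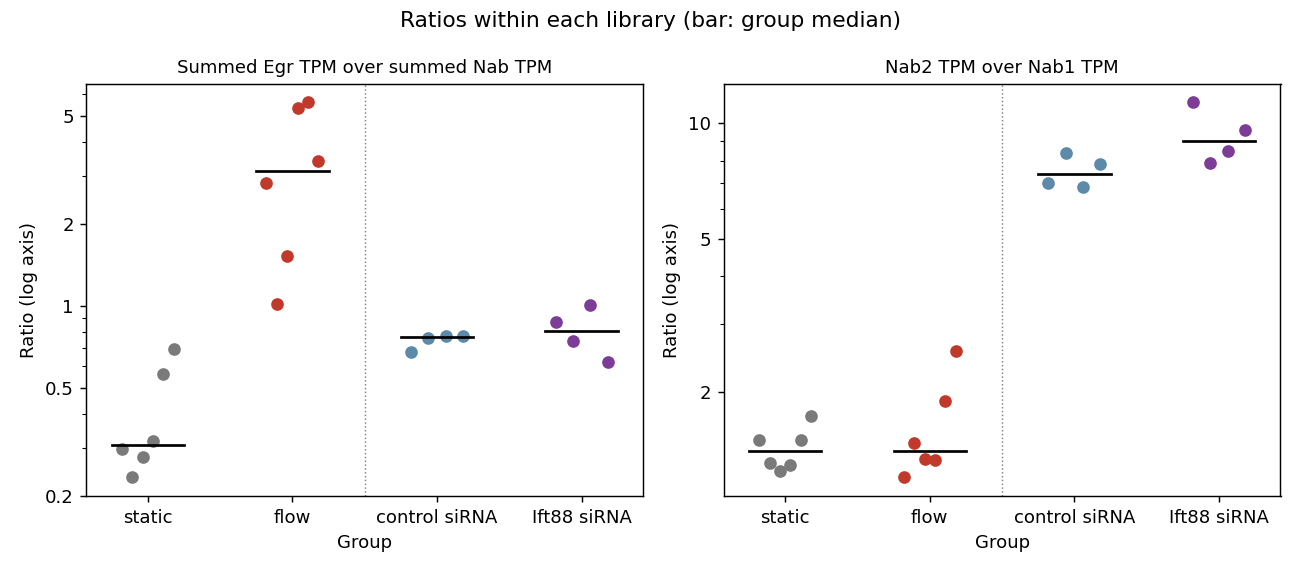
Ratio of summed Egr (Egr1 to Egr4) to summed Nab (Nab1 and Nab2) TPM, left, and of Nab2 to Nab1 TPM, right, in each of the 20 libraries on log axes. Points are libraries, bars are group medians, and the dotted line separates the 2 experiments. All flow libraries are above 1 and all static libraries below 0.7 on the left; on the right all siRNA libraries are above 6.

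By group mean, Egr1 was highest in flow (377 TPM), followed by Ift88 siRNA (222), control siRNA (172) and static cells (42.5). Ift88 siRNA and control siRNA had overlapping libraries, and the flow range of 113 to 695 TPM contained all siRNA values, so these neighbours in the order did not separate. Egr2 was near 33 TPM in both siRNA groups and lower in flow (19.7 TPM), where its range of 2.04 to 53.1 TPM contained all siRNA values. Egr3 was highest in flow by mean (20.1 TPM), again with a range that contained the siRNA values. By median the order was reversed, with 4.73 TPM in flow, 5.84 TPM with control siRNA and 7.84 TPM with Ift88 siRNA. Nab1 ran from 45.7 TPM in flow and 43.4 TPM in static cells to 33.4 TPM with control siRNA and 31.6 TPM with Ift88 siRNA. Nab2 ran the other way, from 292 TPM (Ift88 siRNA) and 249.5 TPM (control siRNA) to 76.3 and 62.0 TPM in flow and static cells, and its siRNA libraries were all above its flow and static libraries.

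The genes most like each member were found by Pearson correlation of log2(TPM + 1) over the 12 flow and static libraries, among 11383 genes. The libraries form 2 conditions and replicate sets, so these values describe likeness and carry no test. Nearest to Egr1 were the immediate early genes Ier2 (r = 0.988) and Jun (0.978) and the TGF-beta inhibitor Smad7 (0.970). Ier2 was at 194 ± 98.9 TPM in flow and 42.3 ± 8.81 TPM in static cells, and Jun at 69.2 ± 21.4 and 34.7 ± 5.70 TPM (n = 6 each). Nearest to Egr2 were Junb (0.987), a partner of AP-1, the mRNA decay factor Zfp36 (0.986) and Csrnp1 (0.985). Nearest to Egr3 were the prostaglandin receptor Ptger4 (0.995), the stress factor Atf3 (0.995) and the calcineurin regulator Rcan1 (0.995). Atf3 was at 179 ± 192 TPM in flow and 23.6 ± 4.03 TPM in static cells. The Nab genes had other neighbours. Those of Nab1 included Zc3h10 (0.918) and Kdm6b, a histone demethylase (0.911). Those of Nab2 were the heparan sulphate enzyme Hs3st1 (0.959), the polarity protein Pard6b (0.939) and the chemokine Cxcl2 (0.932). Among the members, r was 0.935 for Egr1 with Egr2, 0.871 for Egr1 with Egr3, 0.977 for Egr2 with Egr3, 0.832 for Nab1 with Nab2, and 0.499 to 0.770 between Egr and Nab genes.

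Genes that act above and around the Egr proteins were read from fixed lists, which were chosen with earlier results of these data known. Of 16 genes of SRF, its partners and the ERK cascade, 8 had a higher and 8 a lower mean difference under flow, none was called by limma with or without the block, and 1 had an unadjusted p under 0.05. That gene was Srf, at 71.2 ± 25.0 TPM in flow and 38.2 ± 2.71 TPM in static cells (n = 6 each), a difference of 0.81 (SE 0.19, limma adjusted p = 0.161). The median difference of the list was 0.01, and that of all genes tested was -0.03. None of the 8 Egr cofactors (such as Ep300 and Hcfc1), the 13 NuRD subunits, which Nab2 binds, or the 4 tested zinc finger factors of GC-rich sites (such as Sp1) was called, and none of these had an unadjusted p under 0.05. The differences of the NuRD subunits lay between -0.15 and 0.05.

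Of 26 genes described elsewhere as targets of Egr1, Egr2 or Egr3, 21 passed the filter and 17 had a higher mean under flow. By limma 1 of the 21 was called higher without the block, beside 0.105% of all genes tested. With the replicate block 6 of the 21 were called higher, beside 0.597% of all genes, among them Arc, F3, Gdf15, Id3 and Thbs1. Since the list was chosen with earlier results of these data known, the counts describe these genes and cannot be read as a result about Egr targets. Thbs1, a matrix glycoprotein, was at 193 ± 84.1 TPM in flow and 63.2 ± 9.36 TPM in static cells (SD, n = 6 each), with a limma adjusted p of 0.0565 without the block and 0.00643 with it. F3, the tissue factor of coagulation, was at 297 ± 234 TPM in flow and 65.3 ± 6.04 TPM in static cells. Arc, best known from neuronal synapses, was at 71.2 ± 78.2 TPM and 7.07 ± 2.99 TPM in flow and static cells, the widest difference of the list at 2.42. At the other end Hpse, a heparanase, was at 8.23 ± 4.47 TPM and 11.4 ± 2.66 TPM in these groups and was not called. The list's median difference was 0.29, and no target was called lower. The tight junction gene Cldn4, on the list of epithelial markers, was also called with the block, at 66.2 ± 57.5 TPM in flow and 30.3 ± 14.3 TPM in static cells, and its part in these results was not tested.

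The siRNA experiment compared cells under flow with and without silencing of Ift88, and it holds no static libraries. Egr1, Egr2, Egr3, Nab1 and Nab2 were expressed in all 8 siRNA libraries, and Egr4 was listed at 0. No member was called by limma (0 of the 5 tested, beside 0.223% of all 11209 genes tested in either direction), and 2 of 5 had an unadjusted p under 0.05, beside 13.9% of all genes. Egr1 was at 275, 200.0, 253 and 159 TPM in Ift88 siRNA replicates 1 to 4, and at 149, 182, 175 and 180.0 TPM in control siRNA replicates 1 to 4. Ift88 siRNA replicate 4 lay inside the control range and the other 3 lay above it. The log2(TPM + 1) difference was 0.34 (SE 0.14, 95% confidence interval 0.04 to 0.64, unadjusted p = 0.0282, limma adjusted p = 0.302).

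Nab2 was the 1 member whose siRNA groups did not overlap. It was at 334, 285, 262 and 286 TPM after Ift88 silencing and at 242, 261, 241 and 254 TPM with control siRNA, so the lowest Ift88 siRNA library was just above the highest control. That is 1 of 5 members, beside 8.58% of all genes tested. The difference was 0.22 (SE 0.07, 95% confidence interval 0.06 to 0.37), with an unadjusted p of 0.00911 and a limma adjusted p of 0.205. Its neighbour Stat6, on the opposite strand, averaged 144 ± 12.3 TPM after Ift88 silencing and 120.5 ± 11.1 TPM in controls (n = 4 each), a difference of 0.25 (limma adjusted p = 0.194).

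The other members overlapped between the siRNA groups. Egr2 was at 34.4, 30.5, 32.9 and 32.2 TPM after Ift88 silencing and at 33.3, 35.7, 31.5 and 35.6 TPM with control siRNA, a difference of -0.06 (95% confidence interval -0.23 to 0.10, limma adjusted p = 0.750). These replicates spanned a far narrower range than the flow libraries did. Egr3 was at 7.67 to 8.03 TPM in Ift88 siRNA replicates 1 to 3 and at 5.53 TPM in replicate 4, and was at 5.50, 5.54, 7.19 and 6.14 TPM with control siRNA, a difference of 0.22 (95% confidence interval -0.07 to 0.51, limma adjusted p = 0.484). Nab1 was at 29.5, 36.1, 31.0 and 29.9 TPM after Ift88 silencing and at 34.7, 31.1, 35.4 and 32.5 TPM with control siRNA, a difference of -0.08 (95% confidence interval -0.26 to 0.10, limma adjusted p = 0.719). The intervals of Egr2 and Nab1 leave out any rise or fall as large as that of Ift88 itself (-1.17).

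In the surrounding lists, Id3, an inhibitor of helix-loop-helix factors, was the 1 of 20 tested Egr targets called, beside 0.223% of all genes tested, at 257 ± 18.8 TPM after Ift88 silencing and 169.5 ± 36.2 TPM in controls (n = 4 each), a difference of 0.62 (SE 0.12, limma adjusted p = 0.0480). The hyaluronan receptor Cd44 had a limma adjusted p of 0.0236 but changed by less than 1.5-fold, at 129 ± 5.14 and 162 ± 5.34 TPM. Srf was at 18.5 ± 3.70 and 11.7 ± 1.64 TPM, a difference of 0.61 that was not called without the replicate block (limma adjusted p = 0.0739) and was called with it (0.0238). The median difference of the target list was -0.05, and that of all genes tested was 0.02. No cofactor, NuRD subunit or zinc finger factor of the lists was called.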

How the data were processed

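RNA was sequenced from 20 directional libraries of DC2 cells. The authors deposited TPM in 2 tables, 1 per experiment. By their methods, reads were trimmed with Trimmomatic, quantified with kallisto on the Ensembl mouse transcriptome and summed to genes with tximport; their processing notes also list fastp 0.20.0, FastQC 0.11.8, MultiQC 1.8 and kallisto 0.46.2. TPM hold no read totals, so counting error is unknown and no count test was run. The authors' scaling between libraries is not in the values, and median-of-ratios scaling was tried as an alternative. Here log2(TPM + 1) was fitted with limma 3.58.1 in R 4.3.3 (intensity trend) over every gene averaging 1 TPM or more in its table, and p-values were adjusted by Benjamini-Hochberg. The pseudocount understates changes of low genes. Calls needed an adjusted p under 0.05 and a change over 1.5-fold. The procedure was tested on simulated data. Egr4, under the filter, had an exact permutation test.

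Same-numbered flow and static libraries deviated together from their group means (r over genes 0.294, 0.463, 0.425, 0.468, 0.662 and 0.600 for replicates 1 to 6), so these numbers were taken as pairs; the study names no pairing. Groups follow titles where 1 library's labels conflict. Genes named are the members, list genes called in a comparison, Ift88, Stat6 and the 3 genes most correlated with each member; Srf, Hpse, Cd44, Cldn4 and marker genes were added after their values were seen. A few genes that meet this rule are not reported here. Members and lists were chosen with earlier results of these data known. Gene positions are from GENCODE M21 (GRCm38), not the authors' annotation. Other steps used Python 3.11.15, pandas 2.3.3, numpy 2.4.6 and matplotlib 3.10.9.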

Additional observations from a re-analysis of the deposited data

Results flagged for a closer look

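Among 22 gene and group pairs tested, 1 library stood apart from the others in 3 by Dixon's test at the 95% level, which flags about 1 in 20 groups by chance. Egr4 was at 0.0326 TPM in flow replicate 1 and at 0.0351 TPM in static replicate 6, where the other 5 libraries of each group were at 0, so that any value above 0 would have stood apart. Egr3 was at 5.53 TPM in Ift88 siRNA replicate 4, and the other 3 libraries of that group were at 7.67 to 8.03 TPM. Without that library the Egr3 difference between the siRNA groups was 0.33 on the log2(TPM + 1) scale, and it was not called.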

How the results depend on the processing

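The count of members called under flow was 1 (Egr1). It was 0 with no filter on low TPM and with flow replicate 6 counted as static, 2 with library weights and with the replicate block (Egr1 and Egr2), 3 within replicates 4 to 6, and 0 to 2 when 1 library was left out. The block without pair 6, chosen after seeing the data, gave 1 (Egr1, with Egr2 lost). The Egr1 difference was 2.98 with no filter (limma adjusted p = 0.104, over 18564 genes tested), 2.28 with flow replicate 6 as static (1.00), and 2.74 to 3.26 without single libraries, called in 7 of 12. Egr2 was called at 2.66 with library weights, 2.88 with the replicate block and 4.36 within replicates 4 to 6, and ranged from 2.44 to 3.27 without single libraries. Egr3 was called at 4.61 within replicates 4 to 6, and ranged from 2.28 to 3.24 without single libraries. With flow replicate 6 as static, the Egr2 and Egr3 differences fell to 1.88 (SE 0.87) and 1.47 (SE 1.04), and neither was called. The Nab1 and Nab2 differences in that setting turned to -0.00342 and -0.11. Median-of-ratios scaling changed no member call and raised the calls over all genes from 12 to 28. Why these values moved was not tested.

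In the siRNA experiment the 15 alternative counts of called members were all 0. Same-numbered siRNA libraries did not all deviate together (r = 0.0464, 0.00276, 0.259 and 0.176), so they share only a number. Of the 4 pairs, 2 matched best with their own number, and the block moved the calls over all genes from 25 to 44. Egr4 had no alternative. TPM without read totals limit what can be said of values under 1 TPM.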
